A study of Arabidopsis thaliana with 6 samples.

Results

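The genes described here make and destroy abscisic acid (ABA), the hormone that governs seed filling, drying and dormancy. They are 10 genes out of 32678 gene models measured, chosen by their gene identifiers. The CYP707A breakdown family has 4 members, CYP707A1 (AT4G19230), CYP707A2 (AT2G29090), CYP707A3 (AT5G45340) and CYP707A4 (AT3G19270). The synthesis side has 6, which are NCED3 (AT3G14440), NCED5 (AT1G30100), NCED6 (AT3G24220), NCED9 (AT1G78390), ABA2 (AT1G52340) and AAO3 (AT2G27150). Transcripts were counted by RNA sequencing in Arabidopsis thaliana seeds, in 3 libraries of non-green (yellow) seeds labelled Atchlsyn1-1 and 3 libraries of green seeds labelled Atchlsyn1-1/CHLSYN. Seeds of both colours came from siliques of a chlorophyll synthase mutant and were separated from each other before freezing. The green seeds are thus labelled with the mutant allele too, beside CHLSYN, and no other allele or treatment is labelled. RNA was total RNA, made into libraries with an Illumina TruSeq kit. No source used here states the seed age, how many plants a library pools or whether single seeds were genotyped. Nor is it stated that the libraries of a group came from separate plants, so the p-values below cover the scatter of these libraries alone, and that may be technical.

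ABA is made from plastid carotenoids. The 9-cis-epoxycarotenoid dioxygenases (NCEDs) cleave epoxycarotenoids to xanthoxin, which is the committed and usually limiting step. ABA2, a short-chain dehydrogenase, turns xanthoxin into abscisic aldehyde, and the aldehyde oxidase AAO3 oxidises the aldehyde to ABA. The CYP707A cytochrome P450 enzymes hydroxylate ABA, and the product turns into phaseic acid, which has little hormone activity. In developing Arabidopsis seeds NCED6 and NCED9 are known as the main NCED genes, CYP707A1 as a gene of mid-maturation and CYP707A2 as one of late maturation and imbibition. CYP707A3 and NCED3 are best known from vegetative tissue, CYP707A3 after rehydration and NCED3 under drought.

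The stretches before CYP707A3, CYP707A1 and NCED9 are shown first, because these members rose most and each stretch holds the palindrome CACGTG, known as the G-box. Each is the 250 bases before the annotated gene start, 5′ to 3′ on the strand of the gene, from RefSeq's assembly TAIR10.1. Capitals mark every ACGTG, the core of ABA response elements, and every TTGAC, the core of the W-box that WRKY factors bind, read on both strands. They lie at chr5:18371022-18371271, minus strand, at chr4:10521009-10521258, plus strand and at chr1:29492876-29493125, minus strand.
CYP707A3: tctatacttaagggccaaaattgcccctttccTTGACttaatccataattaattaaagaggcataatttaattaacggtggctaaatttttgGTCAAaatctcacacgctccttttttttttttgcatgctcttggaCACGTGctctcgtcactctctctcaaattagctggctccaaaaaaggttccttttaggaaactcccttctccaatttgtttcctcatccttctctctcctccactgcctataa
CYP707A1: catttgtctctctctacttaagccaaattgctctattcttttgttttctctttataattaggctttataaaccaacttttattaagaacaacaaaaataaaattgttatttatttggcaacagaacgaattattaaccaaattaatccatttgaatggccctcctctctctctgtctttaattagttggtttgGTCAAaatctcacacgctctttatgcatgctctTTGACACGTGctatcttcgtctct
NCED9: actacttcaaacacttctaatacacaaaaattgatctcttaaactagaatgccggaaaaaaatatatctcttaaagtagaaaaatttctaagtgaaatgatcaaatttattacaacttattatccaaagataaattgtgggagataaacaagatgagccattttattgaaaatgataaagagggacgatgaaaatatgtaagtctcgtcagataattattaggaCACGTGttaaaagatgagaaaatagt
CACGTG began 113 bases before the start of CYP707A3, 20 before that of CYP707A1 and 26 before that of NCED9. Over the 27443 such windows of protein-coding nuclear genes, 6.49% held CACGTG, 22.9% ACGTG and 44.9% TTGAC. Every CACGTG contains ACGTG on both strands, so these counts overlap, and in CYP707A1 the TTGAC next to the G-box shares a base with it. The windows of CYP707A3 and CYP707A1 also shared an identical run of 23 bases, tttggtcaaaatctcacacgctc, 162 and 61 bases before the start, which holds a TTGAC read on the other strand. Between any other pair of the 10 members the longest shared run was 11 bases. The other 7 windows held no CACGTG. CYP707A4 had 1 ACGTG, ABA2 and NCED3 had 1 TTGAC each, NCED6 and AAO3 had 2 each, and CYP707A2 and NCED5 had neither word. A match is a run of letters and does not show that a factor binds there.

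**Figure D1:**
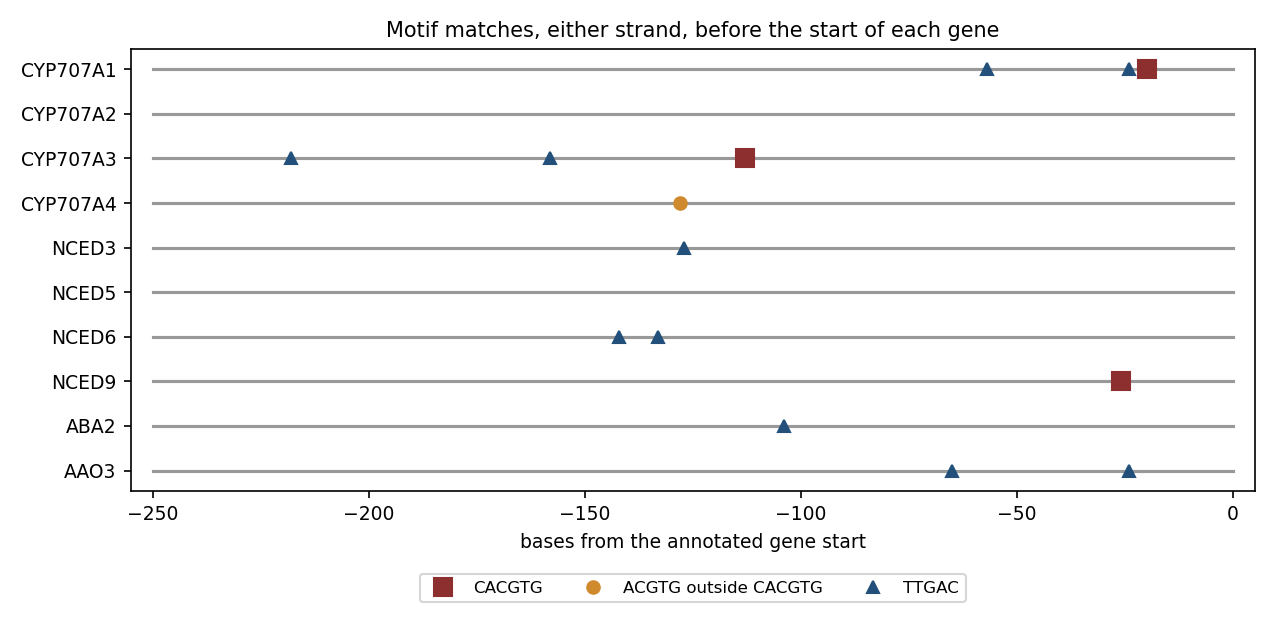
Positions of 3 short words in the 250 bases before the annotated start of each member (x axis, bases from the start; 1 line per gene). Squares mark CACGTG, which is present before CYP707A1, CYP707A3 and NCED9, circles ACGTG outside it, and triangles TTGAC.

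The libraries had total counts of 16438639 to 16745514. Chlorophyll synthase itself (CHLG, AT3G51820) had 0.507 ± 0.144 CPM in non-green seeds and 3.32 ± 0.588 CPM in green seeds (SD, n = 3 each), in the direction of the labels. CPM are counts relative to library size after scaling with TMM factors. Across 17239 genes tested with edgeR's quasi-likelihood test, 26.6% passed a Benjamini-Hochberg adjusted p of 0.05, 14.2% higher and 12.5% lower in non-green seeds. That is 2444 genes higher and 2149 lower, and with scaling by library totals alone 3266 higher and 1364 lower. Groups of libraries did not overlap in 37.3% of tested genes. Over 6 genes of embryo maturation the sum was 248000 to 259000 CPM in non-green and 280000 to 291000 CPM in green libraries, nearly all of it from the storage protein genes CRU3 and CRA1. These 2 genes were lower in non-green seeds, at -0.23 ± 0.02 and -0.11 ± 0.02 on the log2 scale. FUS3, a regulator of maturation, and the oil body gene OLEO1 were higher, at 0.29 ± 0.05 and 0.07 ± 0.03 (SE; edgeR adjusted p = 2.36e-07 and 0.02). OLEO1 lost its call in 5 of the 11 alternatives, and LEC1 and ABI3 did not pass.

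Transcripts of ABA breakdown rose in non-green seeds. CYP707A3 was 6.67-fold, CYP707A1 2.93-fold and CYP707A2 1.31-fold higher, and CYP707A4 was barely counted in either group. On the synthesis side NCED9 was 1.55-fold higher, NCED6 and AAO3 were lower at 0.846 and 0.673 of the green level, and NCED3 and ABA2 did not pass the test. Of the 10 members 8 had enough counts for the test and 6 passed it, 4 higher and 2 lower, against the 26.6% of all tested genes. The 6 that passed are also those whose libraries did not overlap between groups, as was so for 37.3% of all tested genes. The members were chosen with earlier results of these libraries known.

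CYP707A3 had 400, 349 and 381 counts in the 3 non-green libraries, against 53, 50 and 57 counts in the 3 green libraries. Every non-green library lay far above every green one. This is 22.0 ± 1.46 CPM in non-green and 3.30 ± 0.177 CPM in green seeds (SD, n = 3 each), a log2 fold change of 2.74 ± 0.13 (SE, 95% interval 2.47 to 3.0, edgeR adjusted p = 2.2e-31). Ordered by fold change, it was number 20 among the genes tested, counted from the largest rise. With CYP707A1 it was 1 of 2 members that were called and at least 2-fold higher, as were 2.4% of all tested genes. In TAIR10.1 it spans bases 18368532 to 18371021 of chromosome 5 (minus strand).

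CYP707A1 had 571, 644 and 554 counts in non-green libraries, against 204, 177 and 190 counts in green ones. The groups stood well apart again, with 34.5 ± 2.67 CPM in non-green and 11.8 ± 0.766 CPM in green seeds (SD, n = 3 each). Its log2 fold change was 1.55 ± 0.09 (SE, 95% interval 1.37 to 1.73, edgeR adjusted p = 4.61e-26). In TAIR10.1 it spans bases 10521259 to 10523961 of chromosome 4 (plus strand). CYP707A1 and CYP707A3 are the closest pair of the family, with 82.5% identical bases over 1389 aligned coding bases and a longest identical run of 44 bases between their transcripts. All other CYP707A pairs had 61.8% to 64.0% identity and runs of 14 to 23 bases. No source used here states how reads with several matches were counted, so some reads of CYP707A1 and CYP707A3 may have been exchanged.

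CYP707A2, the family member with the strongest known part in breaking down ABA when dry seeds take up water, moved much less. It had 186, 159 and 196 counts in non-green libraries, against 121, 132 and 138 counts in green libraries. The lowest non-green library stood just above the highest green one once scaled, at 9.28 against 8.44 CPM. The log2 fold change was 0.39 ± 0.13 (SE, 95% interval 0.12 to 0.65, edgeR adjusted p = 0.0216). This call was lost without non-green replicate 1 (adjusted p = 0.0648), without non-green replicate 3 (0.141) and without green replicate 1 (0.098). CYP707A4, which stayed under the filter on low counts, had 4, 0 and 0 counts in non-green libraries and 0, 1 and 0 counts in green libraries. At this depth a count of 0 allows up to 3 counts per library, so no fold is given for it.

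NCED9 rose. It had 435, 417 and 436 counts in non-green libraries, against 270, 290 and 226 counts in green libraries, and the groups did not overlap. Its level was 25.1 ± 0.819 CPM in non-green and 16.2 ± 2.21 CPM in green seeds (SD, n = 3 each), a log2 fold change of 0.63 ± 0.09 (SE, 95% interval 0.45 to 0.82, edgeR adjusted p = 3.75e-08). Its single exon spans bases 29490705 to 29492875 of chromosome 1 in TAIR10.1 (minus strand).

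NCED6, known from endosperm, had the opposite direction. It had 521, 470 and 465 counts in non-green libraries, against 507, 532 and 590 counts in green libraries. As counts the ranges overlap, and after scaling they come apart narrowly, at 27.4 to 30.0 CPM in non-green and 31.3 to 36.1 CPM in green libraries. The log2 fold change was -0.24 ± 0.08 (SE, 95% interval -0.39 to -0.09, edgeR adjusted p = 0.0104). The call was lost without green replicate 3 (log2 fold change -0.19, adjusted p = 0.106) and with scaling by library totals alone (-0.17, adjusted p = 0.108).

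NCED3, the drought-induced member, was low in both groups, with 46, 59 and 36 counts in non-green and 33, 43 and 53 counts in green libraries. These ranges overlap. Its log2 fold change of 0.05 ± 0.26 (SE, edgeR adjusted p = 0.919) had a 95% interval of -0.47 to 0.56, which leaves room for a change either way. NCED5 had 9, 6 and 15 counts in non-green and 2, 4 and 16 counts in green libraries, and was too low to be tested. NCED3 and NCED9 have 71.4% identical aligned coding bases and a longest identical run of 42 bases between their transcripts. For NCED3 and NCED5 the run is 38 bases. Reads may have been exchanged here too, since the handling of reads with several matches is not stated.

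ABA2 did not pass. It had 300, 299 and 271 counts in non-green libraries and 287, 278 and 247 counts in green libraries, with overlapping ranges. The 95% interval of its log2 fold change, 0.02 ± 0.10 (SE, edgeR adjusted p = 0.918), ran from -0.18 to 0.22. AAO3, the last step, fell. It had 213, 208 and 276 counts in non-green libraries, against 346, 323 and 312 counts in green libraries. Non-green replicate 3 stood nearest to the green libraries, at 16.4 CPM, against 19.1 CPM in the lowest green one. The log2 fold change was -0.57 ± 0.10 (SE, 95% interval -0.78 to -0.36, edgeR adjusted p = 5.7e-06), and it stayed called in each of the 11 alternative fits, at -0.73 to -0.50. AAO3 spans bases 11601727 to 11608450 of chromosome 2 in TAIR10.1 (plus strand) and overlaps AT2G27160 on the opposite strand, which had 0 counts in all 6 libraries. The ABA2 gene overlaps AT1G52330 on the opposite strand, with 3 to 12 counts in non-green and 12 to 20 in green libraries. It also overlaps AT1G07803 there, over 349 bases against 121 for AT1G52330, and the counts used here have no entry for AT1G07803. No source used here states whether counting used strand, so reads from the overlaps cannot be told apart.

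**Figure D2:**
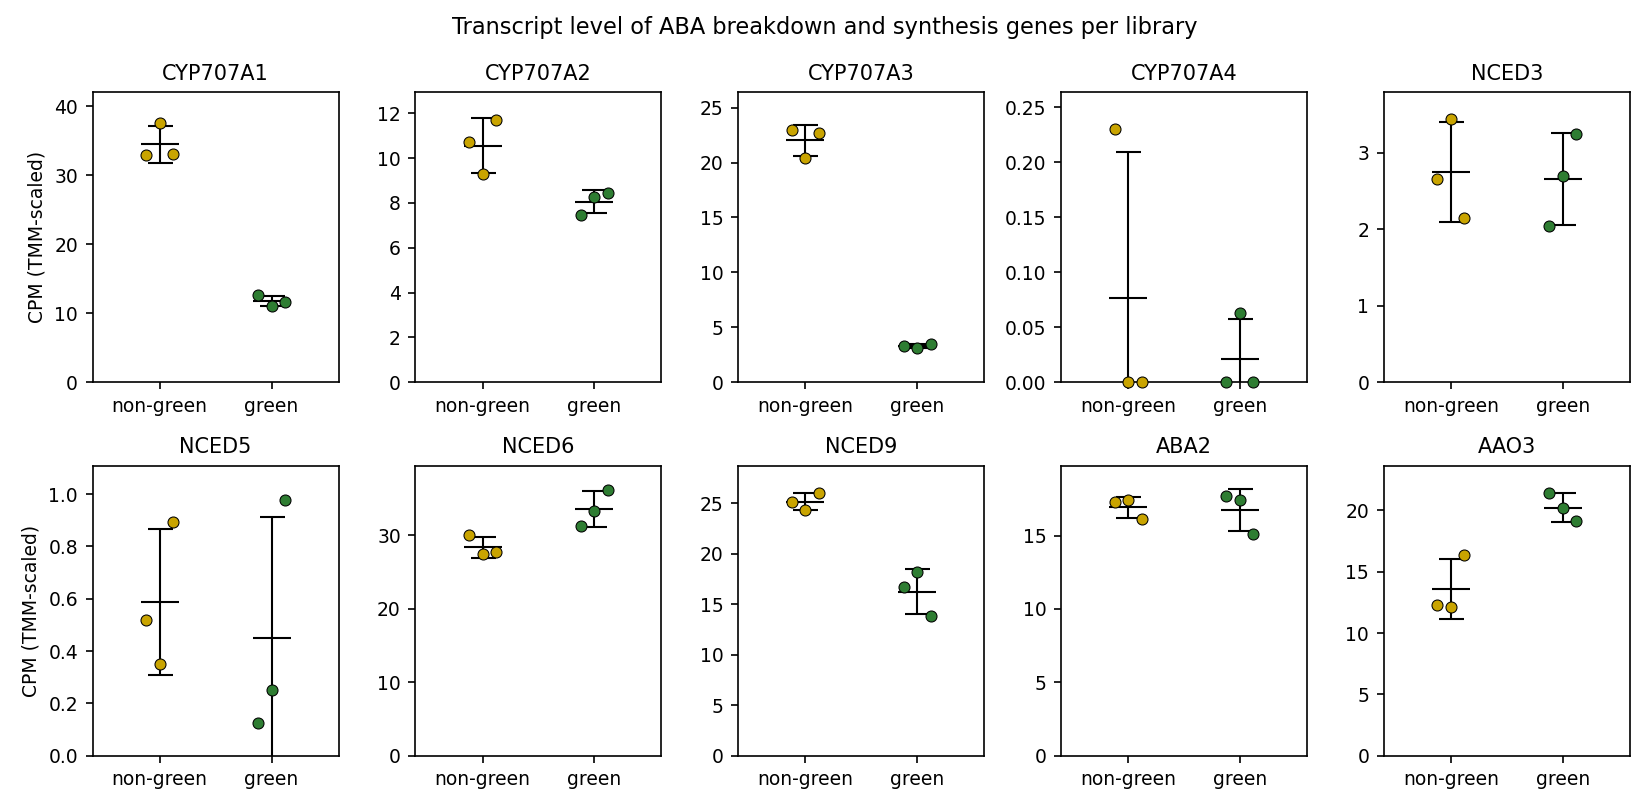
TMM-scaled CPM of each member (y axis, own scale from 0) in the 3 non-green and the 3 green libraries (points; cross line and bar, mean and SD). CYP707A1, CYP707A2, CYP707A3 and NCED9 sit higher in all non-green libraries, NCED6 and AAO3 lower, and the other 4 overlap.

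**Figure D3:**
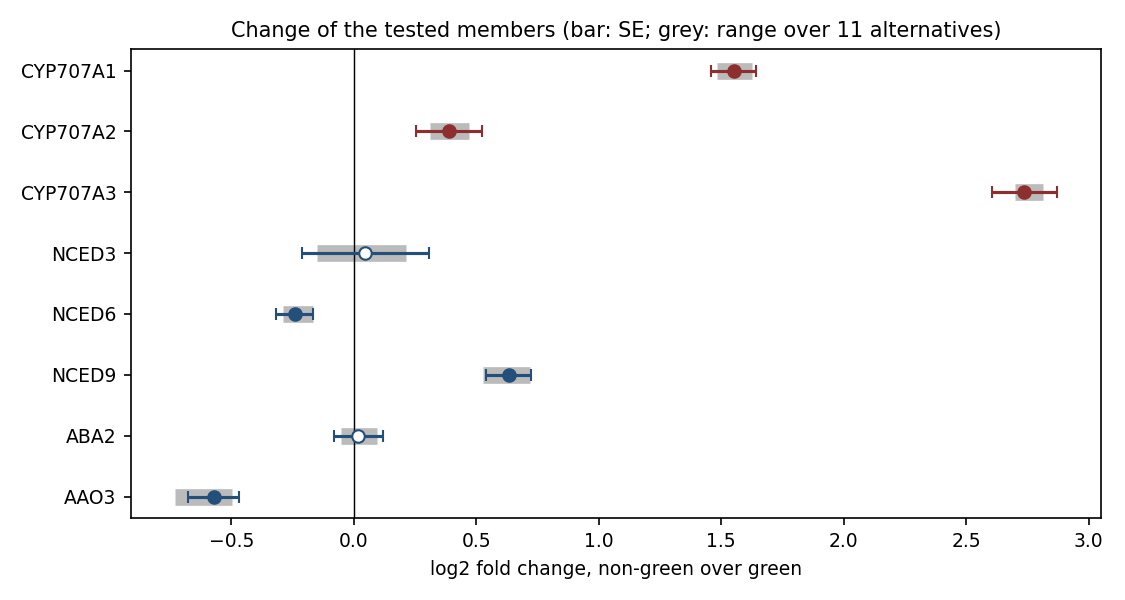
Log2 fold change of non-green over green (x axis) for the 8 tested members, with the SE as a bar and the range over 11 alternative fits in grey. Filled points passed an adjusted p of 0.05, and the CYP707A genes (red) all lie right of 0 while the synthesis genes (blue) lie on both sides.

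In the authors' deposited table the same 6 members have an adjusted p under 0.05 and the same signs. The authors' deposited table lists log2 fold changes of 2.49 for CYP707A3, 1.48 for CYP707A1 and 0.35 for CYP707A2. For the synthesis side, the authors' deposited table lists 0.60 for NCED9, -0.24 for NCED6 and -0.54 for AAO3.

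Levels of different genes were compared per kilobase, using the gene lengths behind the deposited RPKM. In non-green seeds CYP707A1 led with 17.3 ± 1.34 CPM per kilobase, followed by NCED6 with 16.3 ± 0.821, ABA2 with 14.3 ± 0.603, NCED9 with 12.7 ± 0.413 and CYP707A3 with 11.8 ± 0.782 (SD, n = 3 each). CYP707A2 with 5.34 ± 0.611, AAO3 with 2.64 ± 0.474, NCED3 with 1.19 ± 0.283, NCED5 with 0.290 ± 0.137 and CYP707A4 with 0.0457 ± 0.0791 CPM per kilobase came after them. Within this order the libraries of CYP707A1 and NCED6 overlapped, as did those of NCED9 and CYP707A3, and the other neighbours did not. In green seeds NCED6 led with 19.3 ± 1.37 CPM per kilobase, followed by ABA2 with 14.2 ± 1.21, NCED9 with 8.19 ± 1.12 and CYP707A1 with 5.90 ± 0.384 (SD, n = 3 each). CYP707A2 with 4.08 ± 0.261 and AAO3 with 3.92 ± 0.222 overlapped each other, and CYP707A3 with 1.77 ± 0.0951, NCED3 with 1.15 ± 0.260, NCED5 with 0.222 ± 0.227 and CYP707A4 with 0.0124 ± 0.0215 CPM per kilobase were lowest. CYP707A1 thus stood above NCED9 in non-green seeds and below it in green seeds, without overlap in either group. In RefSeq's TAIR10.1 annotation each of the 4 NCED genes has 1 exon and the CYP707A genes have 5 to 9 in their longest transcript. Bowtie 0.12.2 aligns without gaps, so reads across exon joins can be missing from the CYP707A values in both groups, and the levels of the families against each other are less certain than changes between groups.

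Summed over the family, the CYP707A genes had 34.4, 34.5 and 34.6 CPM per kilobase in the non-green libraries, against 11.9, 11.5 and 12 in the green libraries. The NCED sum was 31.3, 29.7 and 30.4 CPM per kilobase in non-green libraries, against 27.4, 29.6 and 29.6 in green libraries. The breakdown sum stood far apart between the groups, while the lowest non-green and the highest green NCED sums differed little. The ratio of CYP707A to NCED transcripts was 1.10, 1.16 and 1.14 in non-green libraries, against 0.433, 0.387 and 0.404 in green libraries. On the log2 scale the ratio was 0.18 ± 0.04 in non-green and -1.29 ± 0.08 in green seeds (SD, n = 3 each), a difference of 1.47. It is given as a description without a test, since it adds up members chosen for this purpose. With CYP707A3 left out the difference was 1.10, and with every gene given equal weight, as mean log2 (RPKM + 0.1), it was 0.98.

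**Figure D4:**
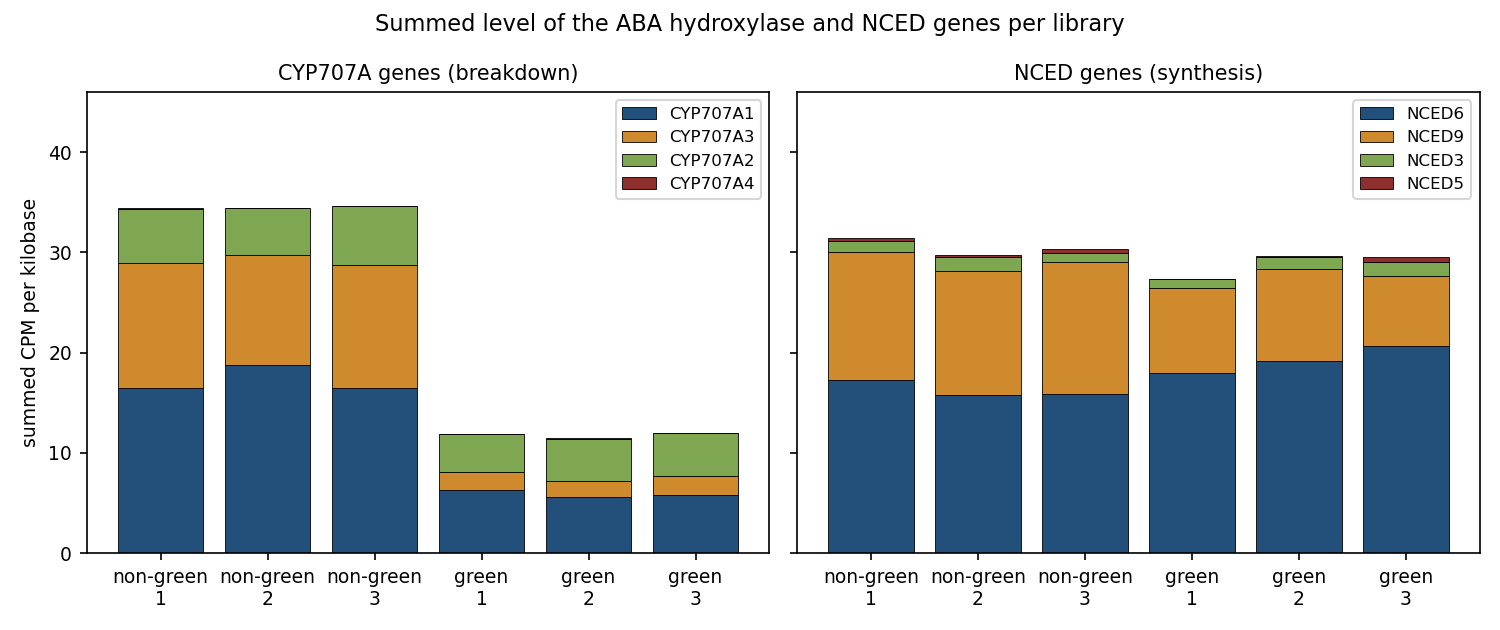
Stacked CPM per kilobase (y axis) of the 4 CYP707A genes (left) and the 4 NCED genes (right) in each non-green and green library. The CYP707A stack reaches 34.4 to 34.6 in non-green and 11.5 to 12 in green libraries, and the NCED stack 29.7 to 31.3 in non-green and 27.4 to 29.6 in green libraries.

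The make-up of both families differed between the groups as well. CYP707A3 held 34.3% ± 2.25 of the CYP707A sum in non-green and 15.0% ± 0.52 in green seeds (SD, n = 3 each). CYP707A2 held 15.5% ± 1.74 in non-green and 34.7% ± 2.46 in green seeds, and CYP707A1 held 50.1% ± 3.94 in non-green and 50.1% ± 2.71 in green seeds. So CYP707A1 gave about the same share in each group, and CYP707A2 and CYP707A3 changed places as the second member. The level of CYP707A2 was itself higher in non-green seeds, at 5.34 against 4.08 CPM per kilobase, and its share was smaller because the sum was larger. The longest transcript has 9 exons for CYP707A2 and 5 for CYP707A3, so reads missing across exon joins make their order less certain too. Of the NCED sum, NCED6 held 53.5% ± 1.42 in non-green and 66.9% ± 2.84 in green seeds, and NCED9 41.6% ± 1.38 in non-green and 28.4% ± 4.21 in green seeds. NCED3 and NCED5 together stayed small, at 3.91% ± 1.0 and 0.949% ± 0.449 in non-green and 3.96% ± 0.757 and 0.757% ± 0.763 in green seeds.

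Of 12 seed coat markers 11 were tested, and 6 of them were lower and 0 higher in non-green seeds, against 12.5% lower among all tested genes. The other 5 did not pass, and TT2 among them was at 0.94 (edgeR adjusted p = 0.159). The summed level of the 12, mostly TT10, was 816 to 837 CPM in non-green and 1110 to 1170 CPM in green libraries. GL2, a regulator of the seed coat epidermis, was at -0.89 ± 0.05 on the log2 scale, and TT10, a laccase of the seed coat, at -0.44 ± 0.04 (SE; edgeR adjusted p = 5.46e-26 and 6.37e-19). Of 10 endosperm markers 4 were tested and 2 were lower, against 12.5% of all tested genes. These were MEA (-1.26 ± 0.23) and ALE1 (-1.92 ± 0.49). ALE1 had only 3, 10 and 4 counts in non-green and 16, 24 and 22 in green libraries. ZOU (-0.06) and EPR1 (0.06) did not pass, and PHE1 and MINI3 were at 0 in all libraries. The endosperm sum, mostly EPR1, was 13400 to 14900 CPM in non-green and 12600 to 14600 CPM in green libraries. Of 8 silique wall markers 6 were tested and 2 were higher, FIL and YAB3, against 14.2% of all tested genes. The other 4 did not pass, with ALC at -0.61, SHP1 at -0.30, RPL at -0.02 and SHP2 at 0.04 (edgeR adjusted p = 0.229, 0.0583, 0.933 and 0.874). The median log2 fold change of the list was 0.01, and without non-green replicate 3 the list had 0 higher and 1 lower. FUL was at 0 throughout, and the sum was 89.8 to 106 CPM in non-green and 86.7 to 93.0 CPM in green libraries. FIL and YAB3 (both 0.22) lost their calls in 2 and 4 of the 11 alternatives. The part of these marker differences in the lower NCED6 and AAO3 and in the higher CYP707A values was not tested. In whole seeds, fewer cells of a type and less RNA per cell cannot be told apart.

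Other genes of ABA synthesis, listed together with the AAO3 relatives AAO1, AAO2 and AAO4, went both ways. Of 7 listed and tested, 3 were higher and 2 lower, against 14.2% higher and 12.5% lower among all tested genes. Their median log2 fold change was 0.20, against 0.0009 for all tested genes. The AAO3 relatives AAO1 and AAO2, aldehyde oxidases better known for other aldehydes, rose by 0.49 ± 0.05 and 0.89 ± 0.16, and AAO4, an aldehyde oxidase of siliques, was at -0.62 ± 0.04 (SE; edgeR adjusted p = 1.36e-14, 3.71e-06 and 1.03e-22). AAO4 had 126 ± 2.31 CPM in non-green and 194 ± 5.25 CPM in green seeds. AAO3 and AAO4 share 77.9% of their coding bases with a longest identical run of 28 bases. ABA1, the zeaxanthin epoxidase, rose by 0.20 ± 0.06, and its call was lost without non-green replicate 1 (0.15, edgeR adjusted p = 0.0696). ABA3, which activates the molybdenum cofactor that aldehyde oxidases need, was at -0.42 ± 0.08. ABA4, which acts in neoxanthin synthesis, and NCED2 did not pass.

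Genes that store ABA as a glucose ester or release it did not pass. Of 8 listed, 4 were tested and 0 were called, against 26.6% of all tested genes. The median log2 fold change was -0.04, and DESeq2 also called 0. Of these 4, 0 had an unadjusted p under 0.05 by edgeR's quasi-likelihood test. Of 6 ABA transporter genes 5 were tested and 2 were lower with 0 higher, against 12.5% of all tested genes that were lower, with a median of -0.28. ABCG25, an ABA exporter, was at -0.46 ± 0.07 and ABCG31, an exporter known from endosperm, at -0.23 ± 0.05 (SE; edgeR adjusted p = 3.88e-08 and 0.000199). Neither lost its call in any of the 11 alternatives.

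The receptors and the signalling chain behind them were mixed. Of 14 ABA receptor genes 11 were tested, with 2 higher and 3 lower and a median of -0.17. Among all tested genes 14.2% were higher and 12.5% lower, to be set beside each list of this chain. PYL2 rose by 0.86 ± 0.14 and PYL12 by 1.72 ± 0.40, while PYL6 was at -0.62 ± 0.10 (SE; edgeR adjusted p = 6.79e-07, 0.000371 and 2.21e-07). PYL12 had only 34, 38 and 30 counts in non-green and 6, 15 and 8 in green libraries. Without single libraries its log2 fold change ran from 1.47 to 2.19. PYL4 (-0.38) and PYR1 (-0.18) were lower but lost their calls in 2 and 8 of the 11 alternatives. Of 9 clade A protein phosphatases, which hold the pathway off until a receptor binds ABA, AHG1 and AHG3 rose by 0.62 ± 0.05 and 0.33 ± 0.04. HAI1 was at -0.38 ± 0.04, and the other 6 did not pass. Of the 3 core kinases OST1 rose by 0.52 ± 0.10, and the other 2 did not pass. Among 7 transcription factors of ABA signalling ABI5 alone was called, at 0.45 ± 0.06, and 3 were called higher with scaling by library totals.

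Genes used as readouts of ABA did not move as one. Of 8 listed, 6 were tested, with 2 higher and 1 lower, against 14.2% higher and 12.5% lower among all tested genes. Their median log2 fold change was -0.0018. EM6, a late embryogenesis protein, had 131 ± 2.23 CPM in non-green and 73.2 ± 6.16 CPM in green seeds, a log2 fold change of 0.84 ± 0.05, and RD29B rose by 0.39 ± 0.04. KIN1, a cold- and ABA-induced gene, had 58.8 ± 2.61 CPM in non-green and 106 ± 6.97 CPM in green seeds, a log2 fold change of -0.85 ± 0.05 (SE; edgeR adjusted p = 5.38e-25). RAB18, EM1 and RD29A did not pass, at -0.02, 0.02 and -0.09.

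**Figure D5:**
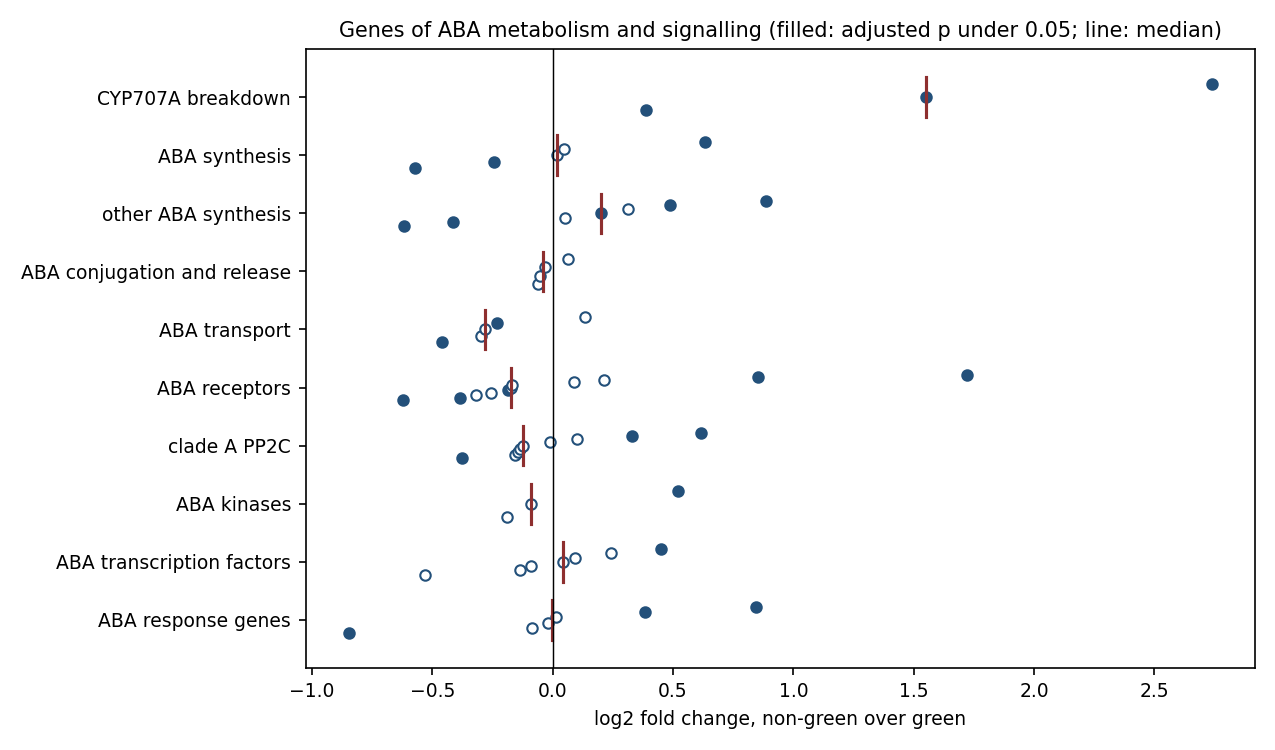
Log2 fold change of non-green over green (x axis) for each tested gene of 10 lists of ABA metabolism and signalling, 1 row per list. Filled points passed an adjusted p of 0.05 and the red line is the median, which is 1.55 for the 3 tested CYP707A genes and between -0.28 and 0.20 for the other 9 lists.

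Genes with patterns most like those of the strongest member on each side were found by the distance between log2 CPM profiles over the 6 libraries, each centred on its own mean, among 16196 genes. All profiles share the same libraries and scaling, and with 2 groups the distance mainly reflects the size of the group difference. The 5 nearest to CYP707A3 were AT5G17350, which has no description in the table, BGAL16, a beta-galactosidase gene, CNI1, named for carbon and nitrogen insensitivity, PHI-1, a phosphate-responsive family gene, and XTH15, a gene of cell wall xyloglucan remodelling. Their distances were 0.475 to 0.589 and their log2 fold changes 2.32 to 3.10. BGAL16, for example, had 11.5 ± 0.690 CPM in non-green and 1.65 ± 0.486 CPM in green seeds. The 5 nearest to NCED9 were HCF164, a thylakoid thioredoxin-like gene, AT2G41990, AT2G47440, LIL3, a light-harvesting-like gene, and the transposable element SADHU5-1. Their distances were 0.133 to 0.159 and their log2 fold changes 0.56 to 0.69. SADHU5-1 passed in 5 of the 11 alternatives, and the other 4 passed in all of them.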

How the data were processed

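RNA-seq libraries of 3 non-green and 3 green seed samples were used. The authors deposited raw counts per gene model and RPKM; Bowtie 0.12.2 and build TAIR10 are named per the submitters' processing notes, while no source used here states the counting program, strand use or read length. Dividing counts by the deposited RPKM and library totals gave whole gene lengths (within 0.05 bases for 100% of 5628 genes whose rounding allowed it), used for levels per kilobase. The authors' deposited comparison has log2 fold changes with errors, adjusted p-values, a mean signal and a test score under column names that DESeq2 uses.

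Counts were filtered with filterByExpr (minimum count 10), which left 17239 genes and at least 99.91% of counts, scaled with TMM factors (0.959 to 1.04) and fitted with edgeR 4.0.16 (limma 3.58.1, R 4.3.3) by the two-sided quasi-likelihood test with a term for seed colour, adjusted over all tested genes. Standard errors are the fold change over the square root of F. DESeq2 1.42.0 and 10 further fits were alternatives. The script was tested on simulated counts. The members and lists were chosen with earlier results of these data known. Named genes are the members, chlorophyll synthase, up to 3 called members of each list by adjusted p with the first in the minority direction, and the 5 nearest profiles (mean CPM at least 1, prior count 2). ABA1, ABA3, PYL4, PYR1, CCD4, OLEO1 and list genes that did not pass were named after their values were seen. Sequences and coordinates are RefSeq's TAIR10.1, matched by locus for 10 of 10 members, and were read with Python 3.11.15 and Biopython 1.88. The gene length behind the deposited RPKM equalled a transcript length of that annotation for 16.3% of 22071 genes. Among the members this held for CYP707A1 and AAO3 alone. The gene models that were counted can thus differ from those whose starts are used here. The 95% intervals come from the edgeR standard errors and include the spread between libraries, while the limits for counts of 0 cover counting error only.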

Additional observations from a re-analysis of the deposited data

How the results depend on the processing

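Depth limits NCED5 and CYP707A4, which were too low to test, and the called changes nearest to none were those that lost their calls, CYP707A2 at 1.31-fold and NCED6 at 0.846. CYP707A1, CYP707A3, NCED9 and AAO3 kept their direction and call in all 11 alternatives, at log2 fold changes of 1.48 to 1.63, 2.70 to 2.81, 0.53 to 0.72 and -0.73 to -0.50. Members called higher numbered 3 to 4 without single libraries, and members called lower 1 to 2, with NCED6 lost without green replicate 3. With scaling by library totals alone 1 member was called lower, because NCED6 missed the threshold. NCED3 ran from -0.15 to 0.21 and ABA2 from -0.052 to 0.0607 without single libraries, so their signs turned, and neither was called. The difference in the log2 ratio of CYP707A to NCED transcripts was 1.47, 1.10 without CYP707A3, 1.77 without NCED9, 0.98 with equal weights and 1.43 from counts not divided by length, and 1.44 to 1.52 without single libraries. No pairing of libraries by replicate number was seen, which does not exclude one. Same-numbered libraries of the 2 groups had correlations of -0.0014 to 0.0133 in their deviations from group means. The replicate block called 4643 genes, against 4593, with 4 members higher and 2 lower. DESeq2 called 4089 genes and the same numbers of members.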

Other observations

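Carotenoid cleavage genes outside the NCEDs were also measured. CCD1, which cuts many carotenoids into volatile products, rose by 0.24 ± 0.04, with 172 ± 2.78 CPM in non-green and 146 ± 4.64 CPM in green seeds (SD, n = 3 each). CCD8, which acts in strigolactone synthesis, had 4.23 ± 0.462 CPM in non-green and 8.18 ± 0.753 CPM in green seeds, a log2 fold change of -0.95 ± 0.17 (SE, edgeR adjusted p = 2.55e-06). CCD7, the step before it, had 12, 17 and 11 counts in non-green and 5, 2 and 6 counts in green libraries, and its call at 1.52 ± 0.57 (edgeR adjusted p = 0.0368) was kept in 3 of 11 alternatives. CCD4, a seed carotenoid gene, was at 0.25 ± 0.10 (edgeR adjusted p = 0.0465), kept in 3 of 11.

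The word CACGTG, found before CYP707A1, CYP707A3 and NCED9, was counted in the same 250-base windows of all tested genes with one. It was present in 285 of 2407 genes called higher in non-green seeds (11.8%), in 161 of 2137 called lower (7.53%) and in 1360 of 16928 tested (8.03%). Among genes called at 2-fold or more it was present in 10.3% of 408 higher and 10.3% of 97 lower genes. TTGAC, found before CYP707A1 and CYP707A3 and also before NCED3, NCED6, AAO3 and ABA2, was counted too. It was present in 45.9% of genes called higher, 44.2% called lower and 44.4% tested. Among genes called at 2-fold or more TTGAC was present in 53.9% of higher and 41.2% of lower genes. The shares are descriptions, and no test of them was made.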
